A study of Mus musculus with 5 samples.

Results

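The genes described here encode the proteins of the mitochondrial ribosome, measured in mouse embryonic stem cells with and without C3G, the guanine nucleotide exchange factor encoded by Rapgef1. They were all protein-coding genes whose symbol begins with Mrpl (large subunit) or Mrps (small subunit) followed by a digit. The rule took 78 of 21951 protein-coding symbols, of which 49 are named for the large and 29 for the small subunit, and it left out 5 processed pseudogenes with such names. Whole-cell RNA had been sequenced from E14Tg2a cells grown on gelatin in GMEM with serum and LIF. There were 3 wild type (WT) samples of the parent line and 2 C3G KO samples, whose cells carry a Rapgef1 locus targeted by a CRISPR plasmid and a repair plasmid, were selected in puromycin and were picked as colonies. Neither group received any other treatment, and the study calls the samples of a group independent without naming the KO clone behind each. The p-values measure the spread between these samples, pooled in part or wholly over genes. Effects of a clone cannot be told apart from those of losing C3G.

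The mitochondrial ribosome translates the few messages of mitochondrial DNA, which encode core subunits of the respiratory chain and of the ATP synthase. Its rRNAs are made inside the organelle, whereas all its proteins are encoded in the nucleus, made in the cytosol and imported. Some of these proteins have a bacterial counterpart and others are found only in mitochondria. A few names mislead: the Mrps18a and Mrps30 proteins sit in the large subunit, and the Mrps36 protein belongs to the 2-oxoglutarate dehydrogenase complex, but the genes were counted here by symbol.

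Levels were given as TPM, the abundance of a transcript per length relative to all transcripts of its library, summed over the transcripts of a gene. In these libraries protein-coding genes took only 28.8 to 31.8% of TPM in WT, 18.6% in C3G KO 1 and 26.0% in C3G KO 2, since small non-coding RNAs took most of the rest. A TPM value therefore falls when non-coding RNA takes a larger share, and each result is given on 2 scales, TPM as deposited and TPM divided by the median-of-ratios factor of its sample (scaled TPM). The factors were 1.33, 1.22 and 1.10 for WT 1 to 3 and 0.619 and 0.906 for C3G KO 1 and 2. Of all 12518 genes tested, the median log2 fold change (C3G KO minus WT) was -0.55 as deposited and 0.0052 after scaling. Rapgef1 had 11.6, 10.3 and 9.64 TPM in WT and 3.92 and 5.55 TPM in C3G KO, and was lower on both scales (scaled log2 fold change -0.41, SE 0.059, limma adjusted p = 0.0044; as deposited -1.02, adjusted p = 0.0003). Transcripts of its C-terminal part remain in such KO cells, and once transcript length and GC content were corrected for, the change was -0.13 and did not pass (adjusted p from 0.0003 to 0.413 over the alternatives), so the gene checks the labels only in part. The 8 embryonic stem cell markers summed to between 2223 and 2345 TPM in WT and between 1771 and 2311 TPM in C3G KO as deposited, and to between 1665 and 2079 and between 2551 and 2862 after scaling. Most of each sum was Dppa5a, at 979, 1173 and 1288 scaled TPM in WT and 2023 and 1713 in C3G KO. Of the 8 markers, 1 (12.5%) was higher after scaling, near the 14.1% of all genes, and this was Dppa5a (log2 fold change 0.71, limma adjusted p = 0.0307). Of the 8, 0 were lower, also at an unadjusted p under 0.05, and their median was 0.19. The 12 markers of differentiated cells summed to between 14.1 and 20.7 TPM in WT and between 6.43 and 11.2 TPM in C3G KO (12.8 to 15.5 and 10.4 to 12.4 after scaling), with none of them at 0 in every sample. Of the 6 of these that could be tested, 4 were lower after scaling (T, Cdx2, Col1a1 and Thy1), where 16.6% of all genes were. Pax6 went the other way, with 2.61, 1.89 and 1.51 scaled TPM in WT and 2.93 and 3.63 in C3G KO, and did not pass (limma adjusted p = 0.0568). Among those too low to test, Gata6, Gata4 and Sox17 had both KO samples above all WT samples after scaling, and Col1a2 had both below. The part of both marker lists in the results below was not tested.

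After scaling, most mitochondrial ribosomal protein genes lay above their WT level in C3G KO cells. In the limma test with Benjamini-Hochberg adjustment over all genes, 32 of the 78 were higher (adjusted p under 0.05), where 14.1% of all genes tested were. Only Mrpl57 was lower, where 16.6% of all genes were. Their median log2 fold change was 0.27, with quartiles at 0.15 and 0.41, and 72 of 78 lay above 0. The count of 32 depended on single libraries: it was 16 without WT 2, 14 without C3G KO 1 and 11 without C3G KO 2.

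On TPM as deposited the direction was the opposite. On this scale limma took each gene's variance wholly from genes of similar level, so its p-values do not reflect the gene's own spread. None of the 78 genes was higher by limma, also none at an unadjusted p under 0.05, where 1.45% of all genes tested were. Of the 78 genes, 10 were lower (18 at an unadjusted p under 0.05), where 56.8% of all genes were lower. Their median log2 fold change was -0.39, against -0.55 for all genes, and 75 of 78 lay below 0. The members were therefore higher than the median gene on both scales, by 0.26 after scaling and by 0.16 as deposited, but whether their fold changes lay above or below 0 depended on the scale. These data cannot tell more RNA of these genes per cell from less RNA of other genes.

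**Figure D1:**
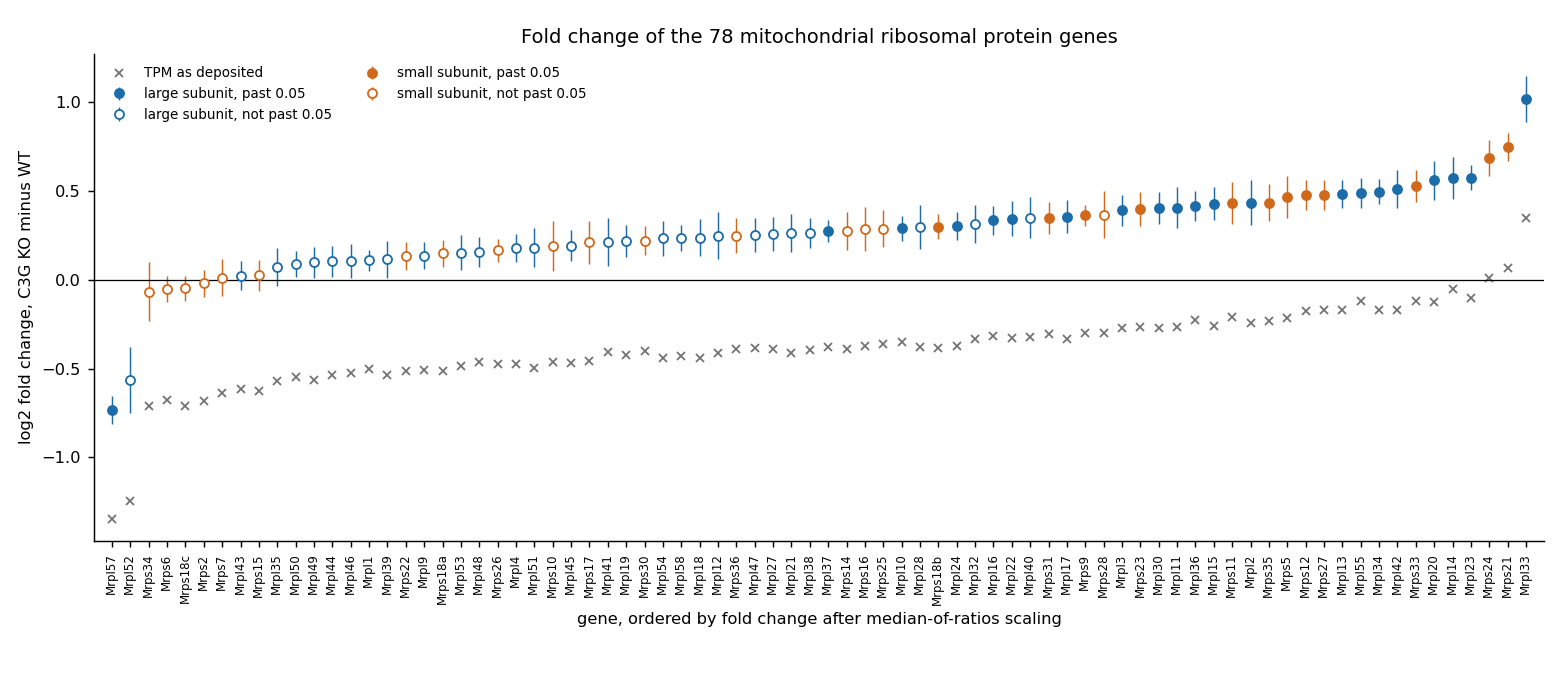
Log2 fold change (C3G KO minus WT, vertical axis) of each of the 78 genes, ordered along the horizontal axis by the change after median-of-ratios scaling. Circles with bars are the scaled change ± SE (filled where adjusted p was under 0.05), and crosses are TPM as deposited: 72 circles lie above 0 and 75 crosses below it, and Mrpl57 and Mrpl52 stand at the left end.

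The summed level of the 78 genes shows the same 2 pictures sample by sample. As deposited the sum was 1778, 1814 and 1682 TPM in WT and 1107 and 1640 TPM in C3G KO, so that both KO samples lay below all WT samples and C3G KO 1 far below C3G KO 2. After scaling it was 1332, 1487 and 1524 in WT and 1790 and 1810 in C3G KO, so that both KO samples lay above all WT samples and close to each other. As a share of the TPM of protein-coding genes, which needs no scaling factor, the genes took 0.559, 0.579 and 0.585% in WT and 0.595 and 0.630% in C3G KO. The groups did not overlap in this share either, although C3G KO 1 was near the highest WT sample.

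The median changes of the large and the small subunit were close to each other on both scales, and the difference between them was not tested. After scaling, 20 of 49 large subunit genes (40.8%) and 12 of 29 small subunit genes (41.4%) were higher, and the median log2 fold changes were 0.26 and 0.28. As deposited, 4 large (8.16%) and 6 small subunit genes (20.7%) were lower, where 56.8% of all genes were, and both medians were -0.39. The scaled sum of the large subunit genes was 949 ± 74.4 in WT (SD, n = 3) and 1172 ± 5.92 in C3G KO (SD, n = 2), and that of the small subunit genes 499 ± 27.4 and 627 ± 20.5. The ratio of large to small subunit TPM, which does not depend on scaling, was 1.84, 1.94 and 1.92 in WT and 1.92 and 1.82 in C3G KO. The KO values lay within or just below the WT range, and the groups overlapped.

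Separation between the groups was also counted. After scaling, both C3G KO samples lay above all 3 WT samples for 58 of the 78 genes (37 large and 21 small), where 29.5% of all genes tested did so. They lay below all WT samples for 2 genes, Mrpl52 and Mrpl57, where 29.3% of all genes did. As deposited they lay above for 1 gene, Mrpl33, where 1.49% of all genes did, and below for 45 genes (31 large, 63.3%, and 14 small, 48.3%), where 75.7% of all genes did.

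Among large subunit genes the largest rise was that of Mrpl33, which encodes the counterpart of the bacterial ribosomal protein of the same number and is annotated at chr5:31596935-31664384 (GRCm38, plus strand). It had 18.4, 20.8 and 17.7 TPM in WT and 22.6 and 26.1 TPM in C3G KO, so that it was the one gene of the 78 with both KO samples above all WT samples even as deposited. Its scaled TPM was 13.8, 17.1 and 16.02 in WT and 36.5 and 28.9 in C3G KO, a log2 fold change of 1.02 (SE 0.13, adjusted p = 0.0031). As deposited the change was 0.35 and did not pass (adjusted p = 0.229). The adjusted p was between 0.0024 and 0.229 over all alternatives. Most of this signal (86.4% of the gene's WT TPM) came from a single protein-coding transcript of 478 bases, with 15.5, 18.3 and 15.4 TPM in WT and 21.1 and 24.5 TPM in C3G KO. A retained-intron transcript of the gene had 1.97, 1.29 and 1.30 TPM in WT and 0.97 and 1.04 TPM in C3G KO, and the groups overlapped after scaling, at 1.48, 1.06 and 1.18 in WT and 1.57 and 1.148 in C3G KO. Its share of the gene's TPM was 6.19 to 10.7% in WT and 4.29 and 3.98% in C3G KO. The gene overlaps Rbks, and the strand setting of the library is not given in the sources used here, so reads from the overlap cannot be assigned with certainty.

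In the small subunit the largest rise was that of Mrps21, the counterpart of a small bacterial protein of the same number, at chr3:95862634-95871519 (GRCm38, minus strand). It had 33.7, 35.02 and 30.5 TPM in WT and 27.7 and 43.2 TPM in C3G KO, so the groups overlapped as deposited. Its scaled TPM was 25.2, 28.7 and 27.6 in WT and 44.8 and 47.7 in C3G KO, with no overlap (log2 fold change 0.75, SE 0.081, adjusted p = 0.0017). As deposited the change was 0.067 and did not pass. Nearly all of its TPM came from protein-coding transcripts of 405 and 488 bases. The shorter held 50.5, 52.3 and 45.1% in WT and 40.3 and 55.7% in C3G KO, so the KO samples lay on either side of WT.

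The promoters of these genes are shown because they led the rises in their subunits and because motifs of factors known to act on nuclear genes for mitochondrial proteins were searched in them. Both sequences run 5′ to 3′ on the gene's strand from 250 bases before to 50 after the RefSeq start (GRCm38.p6), Mrpl33 at chr5:31613701-31614000 (plus strand) and Mrps21 at chr3:95871465-95871764 (minus strand). Capitals mark matches, on either strand, to CCGGAAG (ETS factors such as GABPA) or GCGCATGC (NRF1). AAGATGGC (YY1) had no match in either.
Mrpl33: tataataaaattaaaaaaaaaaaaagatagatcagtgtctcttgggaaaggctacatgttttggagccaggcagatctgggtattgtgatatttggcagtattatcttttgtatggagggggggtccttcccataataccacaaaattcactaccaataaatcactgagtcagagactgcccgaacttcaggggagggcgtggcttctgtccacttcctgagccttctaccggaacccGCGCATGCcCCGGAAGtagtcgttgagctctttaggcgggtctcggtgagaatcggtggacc
Mrps21: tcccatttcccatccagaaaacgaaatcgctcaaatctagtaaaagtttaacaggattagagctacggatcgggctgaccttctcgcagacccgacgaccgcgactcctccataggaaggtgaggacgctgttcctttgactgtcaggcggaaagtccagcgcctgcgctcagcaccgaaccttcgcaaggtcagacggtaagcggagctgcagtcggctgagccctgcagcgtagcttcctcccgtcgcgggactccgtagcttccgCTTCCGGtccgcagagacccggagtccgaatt

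Such motifs were common among the 69 members with a RefSeq promoter, the other 9 having no matched entry. The ETS letters were in 26 of the 69 (37.7%), against 9.93% of 27025 genes with a promoter and 22.5% of 8561 tested protein-coding genes. The NRF1 letters were in 8 (11.6%), against 3.05 and 6.76%, and the YY1 letters in 12 (17.4%), against 3.19 and 5.91%. The last 3 letters of the ETS motif are the first 3 of the YY1 motif, so matches to these can overlap. At least 1 of the 3 motifs was in 38 (55.1%), against 14.9 and 31.8%. The median scaled fold change was 0.26 for members with the ETS letters and 0.27 for those without. It was 0.31 and 0.26 for NRF1, and 0.36 and 0.26 for YY1, the widest gap of the 3, on 12 genes with a match. For members with any of the 3 motifs it was 0.267, and for those without 0.274. These shares and medians are descriptions, and a match is not a binding site shown to be used.

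The other large subunit genes with the largest rises were Mrpl23, Mrpl14, Mrpl20 and Mrpl42. Mrpl23, of the protein family at the exit of the peptide tunnel, had 25.5, 27.5 and 27.7 scaled TPM in WT and 40.2 and 40.7 in C3G KO (log2 fold change 0.57, SE 0.069, adjusted p = 0.0025). Its KO samples lay close together and well above WT, but as deposited it had 34.0, 33.5 and 30.6 TPM in WT and 24.9 and 36.9 TPM in C3G KO, which overlap. Mrpl14, whose protein lies on the face that meets the small subunit, had 6.01, 6.74 and 8.18 scaled TPM in WT and 11.04 and 10.5 in C3G KO (log2 fold change 0.57, SE 0.12, adjusted p = 0.0157). Mrpl20, the relative of a bacterial protein needed for early assembly of the large subunit, had 32.7, 39.1 and 40.7 scaled TPM in WT and 57.7 and 53.3 in C3G KO (log2 fold change 0.56, SE 0.11, adjusted p = 0.0134). Both had their KO samples clear of WT. Mrpl42, a protein without a bacterial counterpart, had 33.2, 39.5 and 39.98 scaled TPM in WT and 50.9 and 56.7 in C3G KO (log2 fold change 0.51, SE 0.11, adjusted p = 0.0161). As deposited the changes of these 4 genes were between -0.17 and -0.051 and none passed. Mrpl14 overlaps Tmem63b.

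In the small subunit Mrps24 and Mrps33 followed. Mrps24, of the family of proteins at the entry site of the message, had 20.996, 25.4 and 25.6 scaled TPM in WT and 39.5 and 38.4 in C3G KO (log2 fold change 0.68, SE 0.10, adjusted p = 0.0050), against 0.0071 as deposited. It overlaps Urgcp, and 76.9% of its WT TPM was assigned to a retained-intron transcript with 18.0, 23.5 and 25.6 TPM in WT and 19.4 and 20.6 TPM in C3G KO. Its main protein-coding transcript varied more, with 7.63, 5.89 and 1.68 TPM in WT and 4.36 and 12.03 TPM in C3G KO, and as deposited the groups overlapped in both transcripts. After scaling the retained-intron transcript still overlapped, while the protein-coding one was at 5.72, 4.83 and 1.52 in WT and at 7.05 and 13.3 in C3G KO. Over protein-coding transcripts alone the gene's change was larger, at 1.1997, and did not pass (adjusted p = 0.107, from 0.0045 to 0.981 over the alternatives). Mrps33, found only in mitochondria, had 10.7, 12.9 and 11.6 scaled TPM in WT and 16.9 and 17.8 in C3G KO (log2 fold change 0.53, SE 0.090, adjusted p = 0.0082), against -0.12 as deposited.

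**Figure D2:**
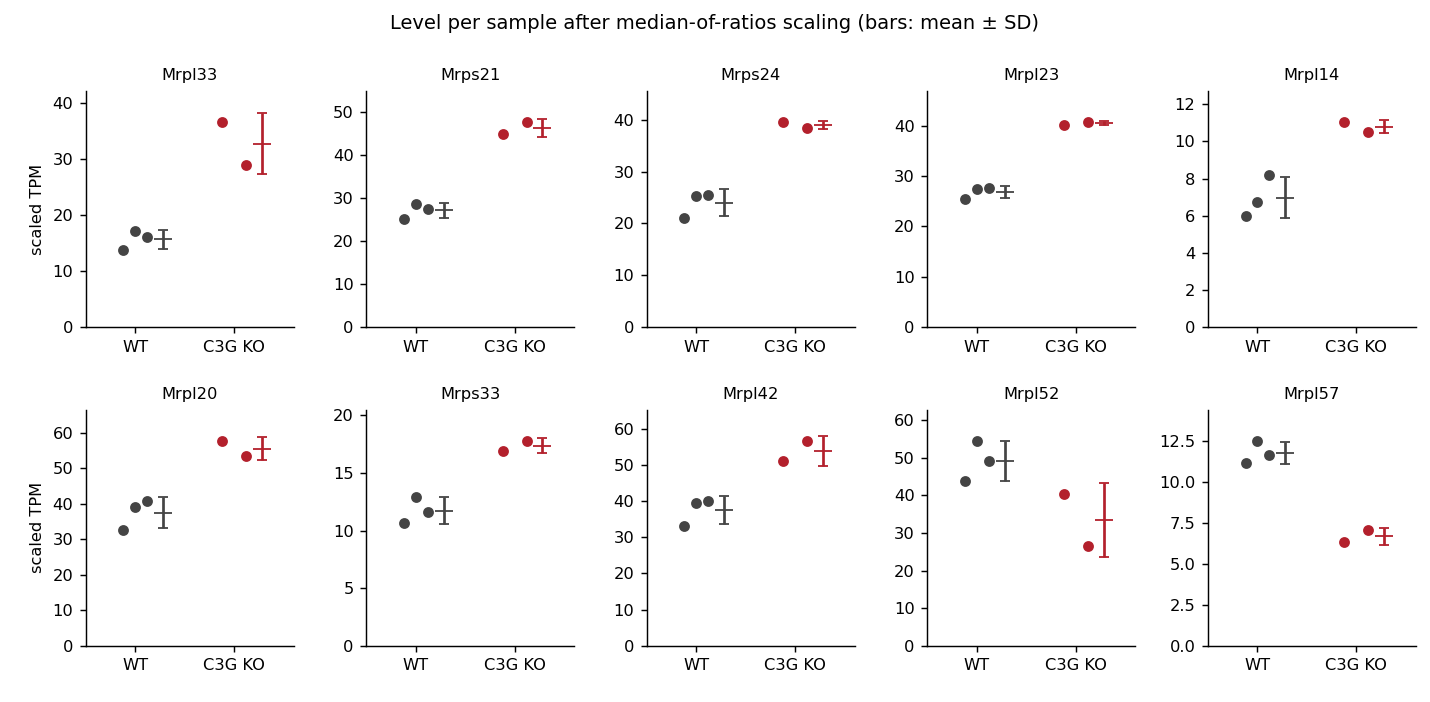
Scaled TPM of 10 genes in each sample (points), with mean ± SD beside them, for WT (3 samples) and C3G KO (2 samples). The 8 largest rises are followed by Mrpl52 and Mrpl57, and in every panel the points of the groups do not overlap, with Mrpl52 in C3G KO 1 the nearest to WT.

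The genes that departed from the rest were Mrpl52 and Mrpl57, the 2 members on chromosome 14 between 40 and 80 Mb. Both encode large subunit proteins found only in mitochondria. Mrpl52 (chr14:54426909-54429756, plus strand) had 58.4, 66.5 and 54.2 TPM in WT and 25.04 and 24.01 TPM in C3G KO. It was among the 3 most abundant members in WT, and both KO samples lay far below all WT samples. Its scaled TPM was 43.7, 54.5 and 49.1 in WT and 40.5 and 26.5 in C3G KO. The groups did not overlap, but the KO samples were far apart and the change did not pass (log2 fold change -0.56, SE 0.19, adjusted p = 0.0650). It passed as deposited (-1.25), under protein-coding scaling (-0.78) and with the length and GC correction (-0.86), and adjusted p ranged from 5.7e-05 to 0.236 over the alternatives. A single transcript bore on this: a 134-base retained-intron model was listed at 6.25 TPM in WT 2, 6.99 TPM in C3G KO 1 and 0 in the other samples. The main protein-coding transcript had 52.0, 53.5 and 47.6 TPM in WT and 16.4 and 21.1 TPM in C3G KO, and over protein-coding transcripts alone the scaled change was -0.78 (adjusted p = 0.0023). The change was -0.86 without C3G KO 1, where it passed, and -0.27 without C3G KO 2.

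Mrpl57 (chr14:57826234-57829296, plus strand) had 14.9, 15.3 and 12.9 TPM in WT and 3.91 and 6.41 TPM in C3G KO. Its scaled TPM was 11.2, 12.5 and 11.6 in WT and 6.32 and 7.08 in C3G KO, with the groups well apart (log2 fold change -0.73, SE 0.079, adjusted p = 0.0017), and it was lower under every alternative (adjusted p from 1.5e-06 to 0.0237). Nearly all of its WT TPM (91.9%) was assigned to a 519-base model annotated as retained intron. Over its protein-coding transcript alone, at 1.36, 1.22 and 0.93 TPM in WT and 0.33 and 0.49 TPM in C3G KO, the change was -0.35, on a scale that understates low genes. Without the chromosome 14 pair, 32 of the other 76 genes were higher after scaling and 0 lower, also at an unadjusted p under 0.05.

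The promoters of this pair are shown for comparison with those of the genes that rose, cut in the same way from GRCm38.p6, Mrpl52 at chr14:54426659-54426958 and Mrpl57 at chr14:57825989-57826288, both on the plus strand. Capitals again mark the motif letters, here ETS only. Mrpl52 holds 2 ETS matches and Mrpl57 holds 1, so the ETS letters occur in the promoters of the pair that lay lower as in those of the genes that rose.
Mrpl52: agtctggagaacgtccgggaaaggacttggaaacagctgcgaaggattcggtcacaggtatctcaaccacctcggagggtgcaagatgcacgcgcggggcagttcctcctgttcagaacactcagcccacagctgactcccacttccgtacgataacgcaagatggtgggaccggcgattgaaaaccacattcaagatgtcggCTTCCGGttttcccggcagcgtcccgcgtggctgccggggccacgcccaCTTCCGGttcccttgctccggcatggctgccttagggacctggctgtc
Mrpl57: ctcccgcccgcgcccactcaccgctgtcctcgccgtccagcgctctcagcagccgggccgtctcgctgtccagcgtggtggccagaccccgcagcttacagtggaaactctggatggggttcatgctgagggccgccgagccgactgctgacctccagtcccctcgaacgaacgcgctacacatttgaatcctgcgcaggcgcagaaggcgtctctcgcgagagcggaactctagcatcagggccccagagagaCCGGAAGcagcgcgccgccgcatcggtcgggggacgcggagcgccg

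The neighbourhood of both genes was lower as a whole. Of 251 genes tested on chromosome 14 between 40 and 80 Mb, 215 (85.7%) were lower after scaling and 2 higher, with a median log2 fold change of -0.71. Elsewhere on chromosome 14, 18.4% of genes tested were lower, and on other chromosomes 15.2%. Of 23 protein-coding genes tested within 1 Mb of Mrpl52, 22 were lower, and of 11 within 1 Mb of Mrpl57, 10 were. Mrps16, a member at 20389304 on the same chromosome but outside the region, had 13.5, 17.1 and 17.9 scaled TPM in WT and 20.2 and 19.4 in C3G KO (log2 fold change 0.28, SE 0.12, adjusted p = 0.132). Among the 24 protein-coding genes within 1 Mb of Mrps16, 4 (16.7%) were lower, near the share elsewhere, and 3 higher. The region was known from earlier results of these data, so these counts are a description, and a change specific to these 2 genes cannot be told apart from one of the whole region.

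Among members with well known roles, Mrps12, of the decoding centre, was higher after scaling, with 11.2, 11.4 and 13.1 scaled TPM in WT and 17.2 and 16.7 in C3G KO (log2 fold change 0.48, SE 0.083, adjusted p = 0.0089). Mrpl11, at the base of the stalk that recruits translation factors, was also higher (0.41, SE 0.12, adjusted p = 0.0443). Mrpl12, the stalk protein itself, had 15.4, 18.5 and 17.6 scaled TPM in WT and 17.8 and 23.6 in C3G KO, which overlap, and did not pass (0.25, SE 0.13, adjusted p = 0.208). The difference between Mrpl11 and Mrpl12 was not tested. As deposited the changes of the 3 genes were -0.17, -0.27 and -0.41.

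The paralogs of Mrps18, which descend from a common bacterial ancestor, gave different values. Mrps18b was higher after scaling (log2 fold change 0.30, SE 0.070, adjusted p = 0.0240), with 41.0, 41.1 and 44.1 scaled TPM in WT and 52.4 and 51.4 in C3G KO. Mrps18a, whose protein is part of the large subunit, was at 19.2, 19.4 and 20.8 in WT and 20.9 and 23.2 in C3G KO and did not pass (0.15, SE 0.077, adjusted p = 0.194). Mrps18c was at 18.2, 19.8 and 19.98 in WT and 18.8 and 18.5 in C3G KO (-0.048, SE 0.069, adjusted p = 0.638). The groups overlapped for Mrps18c and lay barely apart for Mrps18a, and no test between the paralogs was made. As deposited the changes were -0.39, -0.52 and -0.71 for Mrps18b, Mrps18a and Mrps18c, and only that of Mrps18c passed.

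Levels among members spread widely. The WT mean ran from 7.10 TPM for Mrpl55 to 63.4 TPM for Mrpl15. The most abundant after Mrpl15 were Mrpl17 (62.4 TPM) and Mrpl52 (59.7 TPM), and the least abundant after Mrpl55 were Mrpl14 (8.42 TPM) and Mrpl1 (8.85 TPM), whose protein forms the arm beside the tRNA exit site. Both ends of this range held genes that were higher after scaling: Mrpl15 (log2 fold change 0.43, SE 0.094, adjusted p = 0.0189) and Mrpl17 (0.36, SE 0.094, adjusted p = 0.0347) among the high ones, and Mrpl55 (0.49, SE 0.084, adjusted p = 0.0084) and Mrpl14 among the low ones. Mrpl1 did not pass (0.11, SE 0.060, adjusted p = 0.212). As deposited these 4 changes were -0.26, -0.33, -0.12 and -0.50 for Mrpl15, Mrpl17, Mrpl55 and Mrpl1.

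The genes are short, and shorter genes had higher fold changes throughout the libraries. The main transcript of a member had a median length of 897 bases (405 to 3431), against 2373 bases over all genes tested. Spearman's rho between length and scaled fold change across genes was -0.31 over the 78 members and -0.30 over all genes, as a description, since genes of one library share its depth and length bias. Between 500 and 1000 bases, the median change was 0.28 for 37 members and 0.16 for all 1432 genes of that length. Between 1000 and 2000 bases it was 0.27 for 28 members and 0.051 for 2838 genes. After a correction for length and GC content in each sample, 24 members were higher (15 large and 9 small), where 16.3% of all genes were, and 3 were lower (Mrpl52, Mrpl57 and Mrps18c), where 14.6% were. The median was then 0.15 for the members and 0.028 for all genes.

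**Figure D3:**
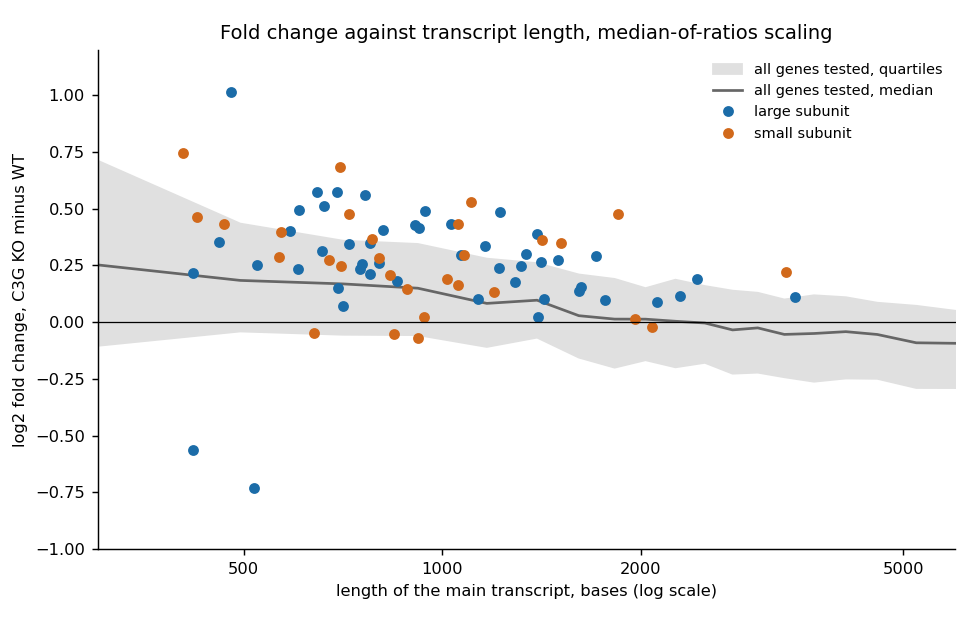
Scaled log2 fold change (C3G KO minus WT, vertical axis) against the length of the main transcript in bases (horizontal log axis), for the 49 large and 29 small subunit genes. The line and band are the median and quartiles of all genes tested: both members and all genes decline with length, and most members lie above the line, with Mrpl57 and Mrpl52 far below it.

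The median of the members stood above that of all genes on each of the 4 scales. The gap was 0.26 with median-of-ratios scaling, 0.16 as deposited, 0.23 with protein-coding scaling and 0.12 with the length and GC correction. The first 3 scales differ only by 1 factor per sample. Such a factor moves the logs of all genes alike, except for the 1 added to TPM before taking them. With TPM rescaled to the total of protein-coding genes, 12 members were higher (7 large and 5 small), where 5.65% of all genes were, and 4 were lower, where 29.8% were. All 12 were among the 32 genes that were higher with median-of-ratios scaling. The median was 0.057 for members and -0.17 for all genes. Mrpl13, Mrpl23, Mrpl33 and Mrps21 were the 4 members higher under every alternative except TPM as deposited, and they were named after their values were seen, apart from those already described.

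**Figure D4:**
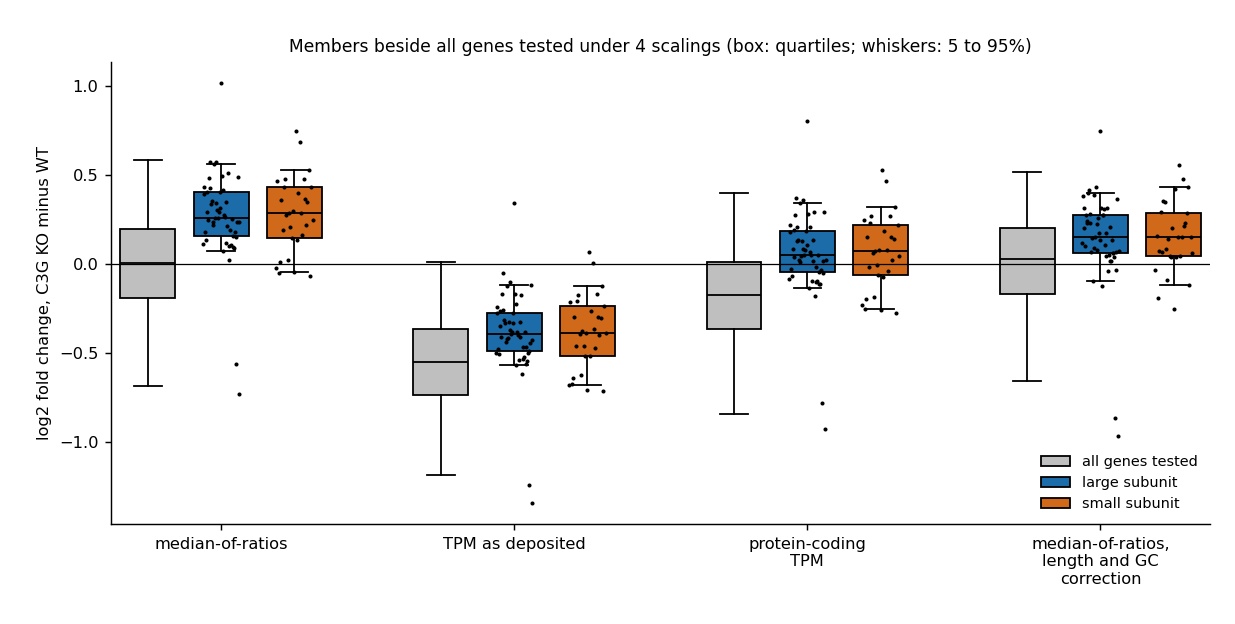
Log2 fold changes (C3G KO minus WT, vertical axis) of all genes tested (grey), large subunit genes (blue) and small subunit genes (orange) under 4 scalings; boxes are quartiles, whiskers 5 to 95%, and points single members. The members' median lines lie above the grey box's median line under each scaling, though the boxes overlap. The whole set of members moves from a median of 0.27 to -0.39 between median-of-ratios scaling and TPM as deposited.

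The makeup of the members' RNA by transcript class was similar in all samples. Protein-coding transcripts held 76.0 to 76.9% of the members' TPM in all 5 samples. Retained-intron transcripts held 10.6, 10.7 and 10.2% in WT and 10.2 and 9.16% in C3G KO, nonsense-mediated decay transcripts 4.62 to 5.38%, and processed transcripts 8.10 to 8.66%. The groups overlapped in protein-coding and processed transcripts. The retained-intron share of C3G KO 2 was the lowest and that of C3G KO 1 was at the lower edge of WT, while the decay share was highest in the KO samples.

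Members also share an arrangement in the genome. They lie on 17 chromosomes, and 33 of 78 (42.3%) start within 1000 bases of a protein-coding gene read in the other direction, against 17.4% of 10832 tested protein-coding genes. Mrps18c starts 29 bases from Helq, Mrps18b 45 bases from Ppp1r10, Mrpl57 49 bases from Ska3 and Mrps12 172 bases from Sars2, the mitochondrial seryl-tRNA synthetase. Mrps11 and Mrpl46, named here for their position after their values were seen, form such a pair of a small and a large subunit gene whose starts lie 412 bases apart and whose bodies overlap. Mrps11 was higher after scaling (log2 fold change 0.43, SE 0.12, adjusted p = 0.0373) and Mrpl46 did not pass (0.10, SE 0.094, adjusted p = 0.440), against -0.21 and -0.53 as deposited. In all, 23 members overlap a protein-coding gene on the other strand and 4 overlap one on the same strand, and their values may hold reads of the partner.

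The genes that build and serve the mitochondrial ribosome were read from lists chosen with earlier results known, and their counts stand against the 14.1% of all genes higher and 16.6% lower after scaling, and 56.8% lower as deposited. Of 5 mitoribosomal genes under other names, 1 was higher after scaling, Ptcd3 (log2 fold change 0.24, adjusted p = 0.0322), and none lower (3 higher and 0 lower at an unadjusted p under 0.05). Of 25 assembly factors tested out of 26, 6 (24%) were higher and 0 lower (10 and 0 unadjusted), with a median of 0.17. The largest rises were those of Tfb1m, the methyltransferase of the small subunit rRNA, with 3.53, 3.79 and 3.76 scaled TPM in WT and 6.01 and 6.41 in C3G KO (log2 fold change 0.62, adjusted p = 0.0015), and Mtg1, a GTPase of large subunit assembly (0.38, adjusted p = 0.0073). Both had KO samples above all WT samples after scaling. As deposited, 7 assembly factors (28%) were lower and 0 higher, and none of the 5 genes under other names was called (0 higher and 1 lower at an unadjusted p under 0.05).

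Of 12 translation factors, 2 (16.7%, near the share of all genes) were higher, the elongation factor relative Guf1 (0.37, adjusted p = 0.0065) and the ribosome recycling factor Mrrf (0.32, adjusted p = 0.0312), and 1 was lower, with a median of 0.040. The lower one was the release factor gene Mtrf1 (-0.68, adjusted p = 0.0044), which lies at 79397772 on chromosome 14, inside the region described above. The 20 aminoacyl-tRNA synthetase and amidotransferase genes had a median of 0.054. As deposited, 7 translation factors (58.3%) and 11 synthetase genes (55%) were lower, again near the share of all genes, and 0 higher.

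Of 13 genes for expression and replication of mitochondrial DNA, 2 were higher (15.4%, near the 14.1% of all genes). They were the gene of its packaging factor, Tfam (0.37, limma adjusted p = 0.0397), and that of its single-strand binding protein, Ssbp1 (0.32, adjusted p = 0.0248). Polg, the catalytic subunit of its polymerase, was lower (-0.42, adjusted p = 0.0181), also as deposited (-1.07), and the median of the list was 0.11. Among 8 regulators of mitochondrial biogenesis tested out of 10, 0 were higher (2 at an unadjusted p under 0.05) and 2 lower, Myc (-0.48, adjusted p = 0.0264) and the coactivator Pprc1 (-0.30, adjusted p = 0.0388), both also lower as deposited. The genes for the factors whose motifs were searched did not pass after scaling: Gabpa had a log2 fold change of 0.26 (adjusted p = 0.0534), Nrf1 0.077 (adjusted p = 0.506) and Yy1 -0.035 (adjusted p = 0.796). As deposited, 6 of the 13 expression and replication genes (46.2%) and 6 of the 8 regulators (75%) were lower, where 56.8% of all genes were. In both lists 0 were higher as deposited, and none of these lists then had a gene higher at an unadjusted p under 0.05.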

How the data were processed

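Total RNA of 3 WT and 2 C3G KO samples of E14Tg2a cells was sequenced as paired ends. Per the labels and methods, the authors used bcl2fastq 2.20, FastQC 0.11.7, STAR 2.5.1b and RSEM 1.2.31 with GRCm38 and deposited TPM for 142647 transcripts; read depth cannot be read from TPM, and strand is not given in the sources used here. The authors compared groups with DESeq2.

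Transcripts were matched to GENCODE M21 (1123 unmatched) and TPM summed per symbol. TPM was divided by median-of-ratios factors, and log2(scaled TPM + 1) was tested with limma 3.58.1 (R 4.3.3, mean-variance trend, two-sided, Benjamini-Hochberg, threshold 0.05) over 12518 genes with at least 1 TPM in at least 2 samples. Fold changes on this scale understate low genes. Scripts were tested on simulated data with larger changes than those of the members. That test does not show how reliably changes of the members' size are called.

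The members and lists were chosen with earlier results of these data known. Named genes were the members on chromosome 14 from 40 to 80 Mb, up to 8 members that rose most and 8 that fell most among those called, the 3 members highest and lowest in WT, the Mrps18 paralogs, Mrpl11, Mrpl12 and Mrps12, and up to 2 called genes in each direction from each other list except the aminoacyl-tRNA synthetases, of which 1 result is not reported here. Alternatives were TPM as deposited, protein-coding scaling, other pseudocounts (0.1 and 5), filters (none and 5 TPM), no trend, each sample left out, a replicate block, a loess correction for transcript length and GC content (span 0.5), and protein-coding transcripts only.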

Additional observations from a re-analysis of the deposited data

How the results depend on the processing

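The small number of samples (3 and 2) limits what could be called, and where a C3G KO sample was left out the lone KO sample was assumed to vary like the WT samples. Other pseudocounts, a filter of 5 TPM and no trend left the counts of higher members within 1.5 times of 32. The number of members higher, in all and for the large and the small subunit, was 32, 20 and 12 with median-of-ratios scaling. It was 0, 0 and 0 as deposited, 12, 7 and 5 with protein-coding scaling, 20, 13 and 7 without a filter, and 15, 10 and 5 with the replicate block and the length and GC correction together. With one sample left out, it ranged from 11 to 35, from 6 to 22 and from 5 to 13. The number lower was 1, 1 and 0. It was 10, 4 and 6 as deposited, 4, 2 and 2 with protein-coding scaling, 3, 2 and 1 with the length and GC correction, 2, 2 and 0 with that correction and the block, 2, 2 and 0 with protein-coding transcripts only, and 0 in all without the members on chromosome 14 from 40 to 80 Mb. With one sample left out it ranged from 1 to 2, from 1 to 2 and stayed at 0. The medians were 0.27, 0.26 and 0.28, and became -0.39, -0.39 and -0.39 as deposited, 0.057, 0.051 and 0.074 with protein-coding scaling, and 0.15, 0.15 and 0.15 with the length and GC correction. With the correction and the block they were 0.18 in all and 0.18 for the small subunit. They ranged from 0.21 to 0.31, 0.20 to 0.31 and 0.22 to 0.32 with one sample left out. The cause of these differences was not tested.

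Whether sample numbers pair the groups could not be decided from the correlation of deviations from the group means. It was -0.18 for the samples numbered 1, 0.18 for those numbered 2 and 0.33 for WT 3 with C3G KO 1. The deviations of the 2 KO samples mirror each other. Each correlation with C3G KO 2 is therefore that with C3G KO 1 with its sign turned. With the replicate block, 34 members were higher, 29 of them among the 32, and 1 was lower, with a median of 0.31. No KO sample shares the number of WT 3, so the fold changes of this fit compare only samples 1 and 2 of each group. It left 1 residual degree of freedom.

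As deposited, the fold change of 23 of the genes named turned from above to below 0, whether or not it passed on either scale, to -0.10 for Mrpl23, -0.051 for Mrpl14, -0.12 for Mrpl20, -0.12 for Mrps33, -0.17 for Mrpl42, -0.26 for Mrpl15, -0.33 for Mrpl17, -0.12 for Mrpl55, -0.50 for Mrpl1, -0.52 for Mrps18a, -0.39 for Mrps18b, -0.41 for Mrpl12, -0.17 for Mrps12, -0.27 for Mrpl11, -0.53 for Mrpl46, -0.21 for Mrps11, -0.37 for Mrps16, -0.44 for Ptcd3, -0.17 for Mtg1, -0.23 for Guf1, -0.24 for Mrrf, -0.29 for Tfam and -0.35 for Ssbp1. With protein-coding scaling, Mrpl1 (-0.087), Mrps18a (-0.064) and Mrpl46 (-0.098) did so too.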

Other observations

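The RNAs made inside the organelle were read beside the proteins. Of the rRNAs of the mitochondrial ribosome, mt-Rnr1 varied widely, at 23384, 19157 and 13176 TPM in WT and at 10934 and 24826 TPM in C3G KO. The other, mt-Rnr2, varied less, at 44610, 44924 and 39282 TPM in WT and at 35365 and 48012 TPM in C3G KO. In both genes one KO sample lay below and one above all WT samples as deposited. After scaling both KO samples lay above all WT samples, at 17516, 15703 and 11935 in WT and 17673 and 27402 in C3G KO for mt-Rnr1 (log2 fold change 0.57, SE 0.38) and at 33416, 36823 and 35581 in WT and 57160 and 52994 in C3G KO for mt-Rnr2 (0.64, SE 0.44). Neither passed on either scale (limma, 0 at an unadjusted p under 0.05). For mt-Rnr2 the scaled samples of each group lay close together, so its SE came mostly from limma's pooling over genes and not from its own spread. Of 13 mitochondrial mRNAs, 0 were called after scaling (0 at an unadjusted p under 0.05), where 14.1% of all genes were higher and 16.6% lower. Their median log2 fold change was 0.23. As deposited 1 was higher (7.69%) and 4 lower (30.8%), where 1.45% of all genes were higher and 56.8% lower. The higher one was mt-Co2, which was listed at 0 in WT 1. It had 21.5 and 30.9 TPM in WT 2 and WT 3 and 18.95 and 17.8 TPM in C3G KO, so the groups overlapped. Only WT 1 lay below the KO samples, and the p-value as deposited does not reflect the gene's own spread, so the call does not show a rise.

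Of the 5 processed pseudogenes with mitochondrial ribosomal protein names, Mrpl23-ps1 was listed at 4.42, 6.07 and 7.63 TPM in WT and at 3.44 and 5.22 TPM in C3G KO, and Mrpl48-ps at 3.49, 2.71 and 2.63 TPM in WT and at 2 and 2.99 TPM in C3G KO. The groups overlapped in both as deposited. After scaling they still overlapped for Mrpl23-ps1, while Mrpl48-ps was at 2.61, 2.22 and 2.38 in WT and at 3.23 and 3.30 in C3G KO, with both KO samples above all WT samples. The 3 named for Mrps36 stayed under 1 TPM in every sample. Values of Mrpl23, Mrpl48 and Mrps36 are uncertain as far as reads were shared with these copies.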
